A study of Homo sapiens with 12 samples.

Results

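The effect of deleting the PAZ helix of DICER on cellular microRNAs was read from 4 of the 12 AQ-seq libraries of the series, namely both libraries titled ΔPAZ helix rescue and both titled wild-type rescue (WT). They were chosen by their titles, and all 1346 microRNA entries of the count tables entered the description. The cells of every group were HCT116, an established colorectal carcinoma line, carrying a rescue DICER: WT, ΔPAZ helix, E5, A5, R821E or R821A, with 2 libraries per group. The labels give no detail of the background that was rescued, of how the rescue DICER was expressed, or of the number of clones, and they give no age or treatment. What the names E5 and A5 stand for was not found in the labels, whereas R821E and R821A name an arginine changed to glutamate or alanine. Nothing in the labels says that paired libraries came from separate cultures, and every p-value below reflects just the spread among these libraries, which may be technical.

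DICER is the RNase III enzyme that cuts the loop from a precursor hairpin (pre-miRNA) and leaves a duplex of a 5p and a 3p strand, of which usually 1 is kept by an Argonaute protein. Its PAZ domain holds the end of the precursor, and the distance from that end to the catalytic centre sets the length of the product. The PAZ helix is a short element beside this pocket that has been seen near the precursor in structures of the enzyme. The comparison asks how much of the cell's mature microRNA output changes when this helix is missing.

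The sequences of the microRNAs on which the results turn are shown first, from RefSeq (GRCh38.p14), which matched 331 of the 374 tested entries and 1179 of all 1346. Capitals mark the seed, bases 2 to 8 from the 5′ end, which directs target pairing. The following 4 share 1 seed, and the first of them was the only entry called between the groups on the main scale.
miR-25-3p: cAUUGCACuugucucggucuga
miR-92a-3p: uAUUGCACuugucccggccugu
miR-92b-3p: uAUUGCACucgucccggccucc
miR-32-5p: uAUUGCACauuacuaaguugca
miR-25-3p lies at chr7:100093571-100093592 on the minus strand, in an intron of MCM7. Its precursor is shown next because capitals there separate both mature strands from the loop, in lower case, that DICER removes. This hairpin is 60 nt long with a loop of 17 nt.
pre-miR-25: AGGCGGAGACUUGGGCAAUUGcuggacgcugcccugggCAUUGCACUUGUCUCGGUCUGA
The next 3 had the lowest p values among negative log2 fold changes that were not called.
miR-185-5p: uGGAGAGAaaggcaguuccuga
miR-98-5p: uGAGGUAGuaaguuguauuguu
miR-221-3p: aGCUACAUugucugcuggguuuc
miR-185-5p lies at chr22:20033153-20033174 on the plus strand in an intron of TANGO2, miR-98-5p at chrX:53556299-53556320 on the minus strand in an intron of HUWE1, and miR-221-3p at chrX:45746180-45746202 on the minus strand in an intron of MIR222HG. The 2 lowest p values among positive log2 fold changes belonged to relatives whose seeds differ, and a relative of the first with its exact seed is shown for contrast.
miR-100-5p: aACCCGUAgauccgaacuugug
miR-10a-5p: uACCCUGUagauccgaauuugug
miR-99b-5p: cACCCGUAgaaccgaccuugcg
miR-100-5p lies at chr11:122152275-122152296 on the minus strand in an intron of MIR100HG, and miR-10a-5p at chr17:48579904-48579926 on the minus strand, in an intron of HOXB3 and an exon of a HOXB4 transcript.

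The WT libraries held 250755 and 247226 microRNA counts and the ΔPAZ helix libraries 224548 and 183673, with 9529 to 11183 spike-in counts in each. Of the 1346 entries, 1082 had a count in these libraries and 264 were at 0. Entries with counts in both WT libraries and none in both ΔPAZ helix libraries numbered 41, and 12 showed the reverse, none above 8 counts in a library. The 374 entries that passed the filter on low counts carried 99.6% of the microRNA counts, and the other 972 were not tested. The microRNAs of colorectal epithelium summed to 445012 to 513926 CPM (counts per library scaled to a common total), led by miR-21-5p. In this list 1 of 17 entries was at 0 in all 4 libraries. The intestinal miR-192, miR-194 and miR-215 summed to only 190 to 347 CPM, and the miR-200 family to 2342 to 2871 CPM. Of the markers of other lineages, 1 of 5 erythroid, 2 of 12 neuronal and 1 of 13 fibroblast and endothelial entries were at 0 in all 4 libraries. Summed marker CPM lay at 5.44 to 75.8 for muscle, 5.44 to 28.3 for hepatocytes, 239 to 287 for erythroid cells, 619 to 698 for leukocytes, 1519 to 1779 for neurons and 2451 to 3218 for fibroblasts with endothelium.

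MicroRNA output relative to the spike-ins was lower in both ΔPAZ helix libraries. WT libraries held 22.4 and 25.9 microRNA counts per spike-in count and ΔPAZ helix libraries 20.6 and 17.8, so the groups did not overlap. The means were 24.2 ± 2.49 and 19.2 ± 1.92 (SD, n = 2; two-sided exact permutation test, p = 0.333, the smallest that 2 against 2 libraries can give). A single sequence, spike_in_24, made up 6.95% of the spike-in counts in ΔPAZ helix replicate 2 and 1.51% in replicate 1. Without it the means were 24.85 ± 2.72 and 20.02 ± 1.20. With all spike-ins, the libraries of the other mutants also lay below both WT libraries. They held 17.7 and 16.5 microRNA counts per spike-in count in E5, 18.3 and 18.6 in A5, 15.3 and 13.4 in R821E, and 17.6 and 21.5 in R821A. The labels do not name the step at which spike-ins were added, and fewer cells and less microRNA per cell cannot be told apart by this quantity. Detected entries numbered 800 and 791 in WT and 730 and 709 in ΔPAZ helix, libraries that also differed in depth, and the part of depth in this difference was not tested.

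Relative to the other microRNAs, miR-25-3p was the 1 entry called in the main fit, and it fell to 0.53 of its WT level. This scale uses trimmed-mean (TMM) factors, so that a level in CPM is relative to the bulk of microRNAs. miR-25 belongs to the miR-106b~25 cluster, a paralogue of the oncogenic miR-17~92 cluster, and is known to target CDKN1C and BCL2L11. Its 3p strand was at 4086 and 3469 CPM in WT and at 1960 and 2042 CPM in ΔPAZ helix, with no overlap and close agreement between the mutant libraries. The means were 3778 ± 436 and 2001 ± 57.8 CPM (SD, n = 2). The fitted log2 fold change was -0.92 ± 0.15 (SE), with a Benjamini-Hochberg adjusted p of 0.00885 in edgeR's quasi-likelihood test. Per 1000 spike-in counts it stood at 105 and 95.1 in WT and at 39.7 and 38.1 in ΔPAZ helix, a log2 fold change of -1.36 ± 0.15 (edgeR adjusted p = 2.03e-04). The call rests on the spread shared by all 12 libraries: with only the 4 libraries in the fit the adjusted p was 0.452, and without ΔPAZ helix replicate 1 or 2 it was 0.41 or 0.28, at log2 fold changes of -0.92, -0.86 and -0.94.

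Over all entries, 0.267% were called lower and 0 higher on this scale. At an unadjusted p below 0.05 edgeR gave 24 higher and 20 lower entries, and neither DESeq2 nor limma-voom called any entry higher. With no filter on low counts edgeR called miR-100-5p (0.56), miR-10a-5p (0.58) and miR-4454 (0.73) higher, each at an adjusted p of 0.0295. Both ΔPAZ helix libraries lay above both WT libraries for 77 entries (20.6%) and below both for 78 (20.9%), and the median log2 fold change was 0.00. Precision followed the level. The median SE of a log2 fold change was 0.16 for the 84 entries at 1000 CPM or more, none of which differed by over 1 on the log2 scale, against 0.29 for 163 entries at 100 to 1000 CPM and 0.51 for 127 below. Replicates differed more in WT, by a median of 0.35 on the log2 scale over 247 entries, than in ΔPAZ helix, by 0.16, while the test shares 1 spread among groups.

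**Figure D1:**
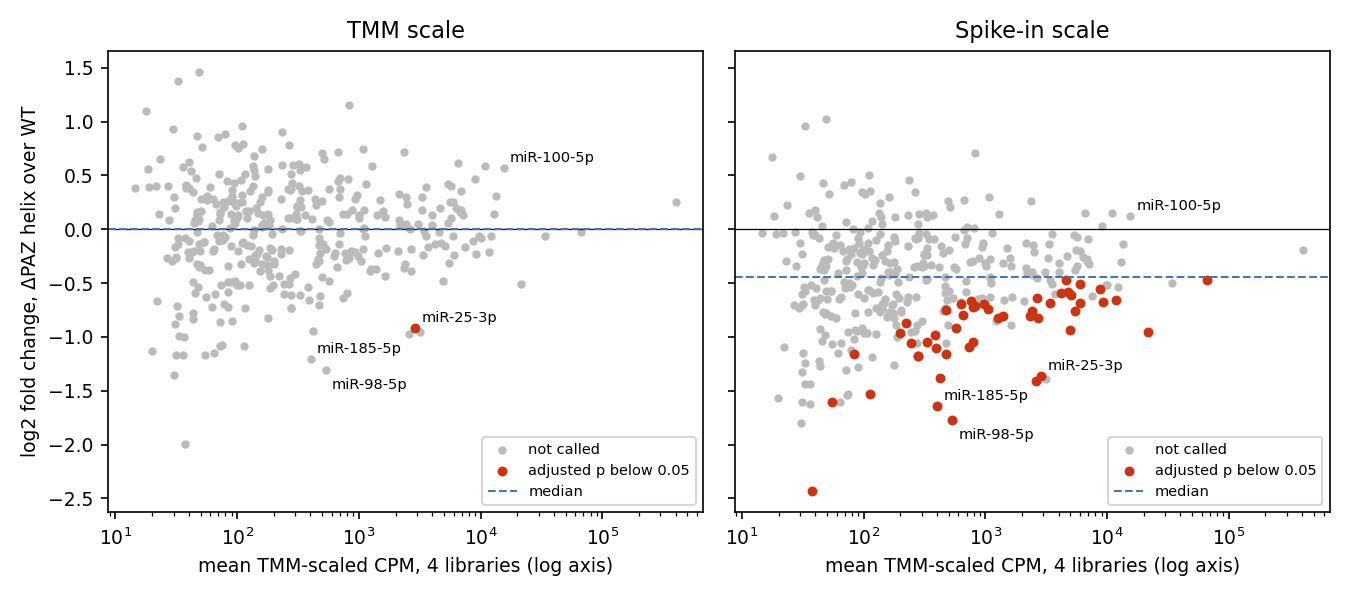
Log2 fold change of each of the 374 tested entries (ΔPAZ helix over WT) against its mean TMM-scaled CPM over the 4 libraries (log axis), relative to the other microRNAs (left) and to the spike-ins (right). Red points have an adjusted p below 0.05, 1 on the left and 49 on the right, and the dashed line is the median, which lies at -0.45 on the right.

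The other negative log2 fold changes of lowest p stayed above the threshold on the TMM scale. miR-185-5p, which is known to repress DNMT1 and SREBF1, was at 658 and 467 CPM in WT and 262 and 224 CPM in ΔPAZ helix. Its log2 fold change of -1.21 ± 0.25 had an adjusted p of 0.052 with edgeR and 0.0444 with DESeq2, and relative to the spike-ins it fell by 1.65 (adjusted p = 0.00267). miR-98-5p, a let-7 family member, was at 581 and 942 CPM in WT and 266 and 349 CPM in ΔPAZ helix. Here the groups did not overlap, yet WT libraries lay far apart, and the log2 fold change of -1.31 ± 0.29 had an adjusted p of 0.0752 with edgeR and 0.0374 with DESeq2. Relative to the spike-ins miR-98-5p fell by 1.77 (adjusted p = 0.00529). On the TMM scale miR-185-5p was at -1.41 without WT replicate 2 and miR-98-5p at -1.61 without WT replicate 1. Each of these omissions left the WT library further from the mutant values. Over the 14 alternatives the log2 fold changes ranged from -1.41 to -0.93 for miR-185-5p and from -1.61 to -0.90 for miR-98-5p.

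miR-221-3p, which targets CDKN1B (p27) and was the fourth most abundant entry in WT, stood at 26987 and 23758 CPM in WT and 17512 and 18270 CPM in ΔPAZ helix. Its log2 fold change was -0.50 ± 0.14 (edgeR adjusted p = 0.136), and on the spike-in scale it fell by 0.95 (adjusted p = 0.00267). miR-101-3p, known to target EZH2, was at 881 and 915 CPM in WT and at 546 and 604 CPM in ΔPAZ helix, with a log2 fold change of -0.64 ± 0.18 (edgeR adjusted p = 0.136). It fell by 1.09 on the spike-in scale (adjusted p = 0.00422). All of these entries had both mutant libraries below both WT libraries on either scale, which adds no independent support because p in the same libraries chose them.

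No entry was called higher in the main TMM fit. The lowest p among positive values belonged to miR-100-5p, to its Hox-cluster relatives miR-10a-5p and miR-10b-5p, and to less studied microRNAs. miR-100-5p, which is known to target MTOR, was at 13239 and 11741 CPM in WT and at 19097 and 17916 CPM in ΔPAZ helix. Its log2 fold change of 0.57 ± 0.13 had an adjusted p of 0.0806 (edgeR), and it was 0.12 on the spike-in scale (adjusted p = 0.594). miR-10a-5p, encoded in the HOXB cluster, was at 10044 and 7353 CPM in WT and at 13705 and 12458 CPM in ΔPAZ helix, a log2 fold change of 0.59 ± 0.15 (edgeR adjusted p = 0.102; 0.15 on the spike-in scale).

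The same separation was seen at lower levels for its near relative miR-10b-5p, encoded in the HOXD cluster, with 578 and 433 CPM in WT and 813 and 849 CPM in ΔPAZ helix (log2 fold change 0.71 ± 0.20, edgeR adjusted p = 0.136). miR-7974 was at 877.1 and 731.4 CPM in WT and at 1355 and 1344 CPM in ΔPAZ helix (0.75 ± 0.19, edgeR adjusted p = 0.102). miR-4517 was at 153 and 172 CPM in WT and at 303 and 307 CPM in ΔPAZ helix (0.90 ± 0.27, edgeR adjusted p = 0.158). For these 5 entries, chosen by p in the same libraries, the groups did not overlap in TMM-scaled CPM, while on the spike-in scale none was called. Without WT replicate 1, the higher of the WT libraries for miR-100-5p, miR-10a-5p, miR-10b-5p and miR-7974, their log2 fold changes were 0.66 to 0.95. Over the 14 alternatives these ranged from 0.44 to 0.66 for miR-100-5p and from 0.40 to 0.84 for miR-10a-5p. The ranges were 0.54 to 0.95 for miR-10b-5p and 0.62 to 0.89 for miR-7974.

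None of the 10 entries highest in WT passed the test on the TMM scale. miR-21-5p, the oncogenic microRNA that dominates these cells, was at 328978 and 409012 CPM in WT and at 467872 and 412210 CPM in ΔPAZ helix, a log2 fold change of 0.25 ± 0.16 (edgeR adjusted p = 0.527) and -0.20 relative to the spike-ins. Its passenger strand miR-21-3p was at 7218 and 17753 CPM in the WT libraries, which enclosed both mutant values of 12247 and 11593 CPM. The values of the others were miR-222-3p (log2 fold change -0.03), miR-31-5p (-0.06), miR-24-3p (-0.08), miR-27a-3p (-0.21), miR-4521 (0.14) and miR-16-5p (0.31). Of these 10, miR-221-3p, miR-222-3p and miR-27a-3p passed it on the spike-in scale, the last 2 falling by 0.48 and 0.66 (edgeR adjusted p = 0.0407 and 0.0477). On that scale 13.1% of all tested entries were called lower, and 23 of the 84 entries at 1000 CPM or more.

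**Figure D2:**
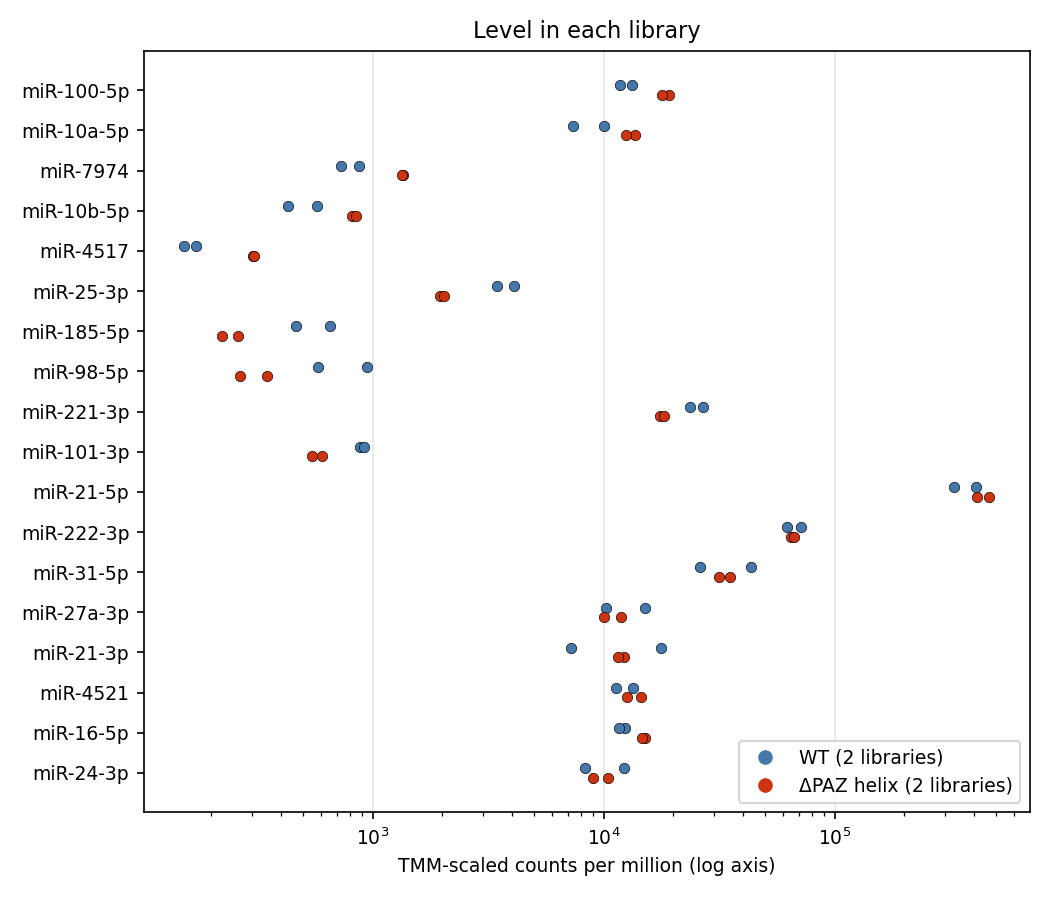
TMM-scaled CPM (log axis) of named microRNAs in each of the 2 WT (blue) and 2 ΔPAZ helix (red) libraries: the 5 lowest p values among positive fold changes, the 5 among negative ones, then the most abundant entries in WT. In the upper 10, chosen by p in these libraries, the groups do not overlap. miR-21-3p lies at 11593 and 12247 CPM in ΔPAZ helix, between its WT values of 7218 and 17753.

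Relative to the spike-ins, 49 entries (13.1% of those tested) were called lower and 0 higher (edgeR, 118 lower and 0 higher at an unadjusted p below 0.05). DESeq2 also called none higher. The median log2 fold change was -0.45, and 325 of 374 entries (86.9%) were negative. Both ΔPAZ helix libraries lay below both WT libraries for 202 entries (54.0%) and above both for 17 (4.55%). The largest falls among entries of 100 CPM or more were miR-98-5p (-1.77), miR-185-5p (-1.65), miR-320b (-1.53), miR-103a-3p (-1.41), miR-324-5p (-1.38) and miR-25-3p (-1.36), followed by miR-365a-3p and miR-365b-3p (both -1.18, with the same counts in these libraries, so their reads cannot be told apart), miR-545-5p (-1.16) and miR-744-5p (-1.15). miR-103a-3p, a repressor of DICER1 mRNA, stood at 115 and 66.0 per 1000 spike-in counts in WT and at 34.3 and 33.9 in ΔPAZ helix. On the TMM scale it was called only without WT replicate 2 and with no filter on low counts (-1.33 and -0.98, edgeR adjusted p = 0.0395 and 0.00991). miR-320b was at 4.20 and 3.99 in WT and at 1.46 and 1.36 in ΔPAZ helix.

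The spike-in calls depended on the libraries in the fit: 0 entries were called with only the 4 libraries, and the number moved with the single library left out. The median log2 fold change was -0.48 without WT replicate 1 and -0.36 without WT replicate 2. It was -0.56 without ΔPAZ helix replicate 1 and -0.41 without ΔPAZ helix replicate 2. Leaving out spike_in_24 gave 30 calls, TMM factors over the spike-ins gave 18, and the replicate number as a block gave 27. The main calls followed level: 23 of 84 entries at 1000 CPM or more, 23 of 163 at 100 to 1000 CPM and 3 of 127 below. The shares called among strands, lists and sequence features given below were not matched for level.

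The strands had different medians. The 174 tested 5p entries had a median log2 fold change of 0.08 and the 148 tested 3p entries one of -0.13, beside 0.12 for the 52 entries without a named strand. Relative to the spike-ins the medians were -0.36, -0.57 and -0.33, with 19 (10.9%), 26 (17.6%) and 4 (7.69%) entries called lower, beside 13.1% of all. The 3p strands made up 27.5% and 24.9% of microRNA counts in WT and 20.8% and 22.8% in ΔPAZ helix, means of 26.2% ± 1.80 and 21.8% ± 1.41 (SD, n = 2; exact permutation test, p = 0.333). The 5p counts exceeded the 3p counts by a ratio of 2.47 and 2.81 in WT and 3.57 and 3.15 in ΔPAZ helix. miR-21-5p alone took 37.7% and 43.2% of counts in WT and 46.1% and 43.1% in ΔPAZ helix, which overlapped, and its part in the 3p share was not tested.

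**Figure D3:**
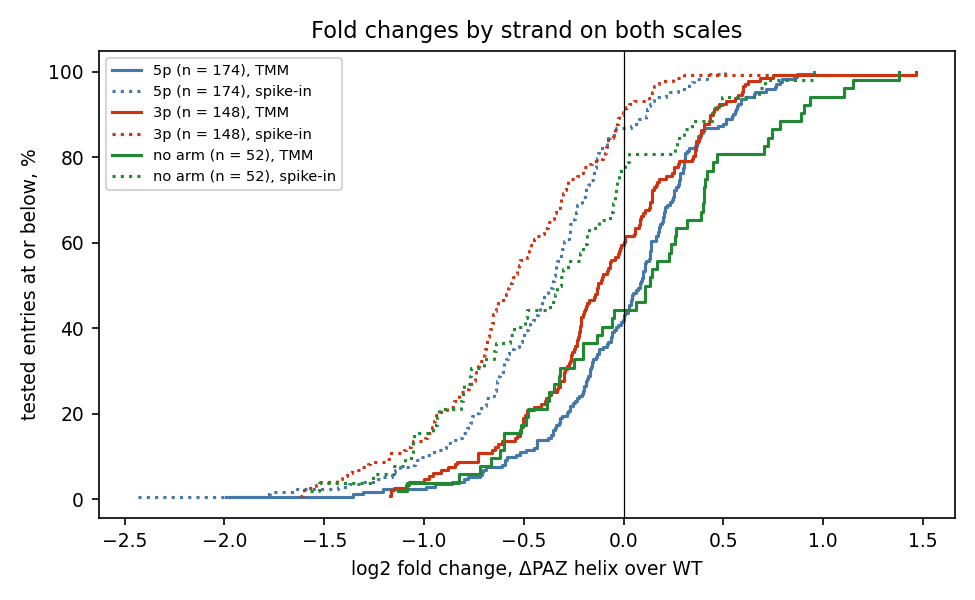
Cumulative share of tested entries (vertical axis, %) at or below a log2 fold change of ΔPAZ helix over WT (horizontal axis), for 5p, 3p and unnamed strands, relative to the other microRNAs (solid) and to the spike-ins (dotted). The 3p curve lies left of the 5p curve over most of its length on both scales, with medians of -0.13 and 0.08 on the solid curves.

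Within hairpins, where scaling cancels, no 5p to 3p ratio passed the test. Of 69 hairpins with at least 20 counts on average in both strands, 0 were called (limma, lowest adjusted p = 0.106), 6 leaned to 5p and 5 to 3p at an unadjusted p below 0.05, and the median shift was 0.08 on the log2 scale. Both mutant libraries lay above both WT libraries for 18 hairpins (26.1%) and below both for 10 (14.5%). The lowest p belonged to miR-29c, a repressor of collagen mRNAs, whose strands are printed because their order differed between groups.
miR-29c-5p: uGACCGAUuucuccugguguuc
miR-29c-3p: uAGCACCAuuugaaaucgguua
pre-miR-29c: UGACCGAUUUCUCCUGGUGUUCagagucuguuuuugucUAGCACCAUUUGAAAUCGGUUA
In the precursor the lower-case letters are the loop. In WT the 5p strand had 61 and 46 counts against 105 and 67 for the 3p strand, and in ΔPAZ helix 79 and 60 against 52 and 39. The log2 ratio was thus below 0 in both WT libraries (-0.78 and -0.54) and above 0 in both mutant libraries (0.60 and 0.62), a shift of 1.26 ± 0.31 (limma adjusted p = 0.106).

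The other hairpins with a shift to 5p at an unadjusted p below 0.05 were miR-29a (0.48), miR-454 (1.03), miR-200a (0.99), miR-331 (0.82) and miR-27a (0.50). miR-29a, with over 1000 counts per strand and library, had log2 ratios of -0.97 and -0.94 in WT and -0.44 and -0.51 in ΔPAZ helix. When only the 15 hairpins with at least 100 counts per strand were tested, it was called (limma adjusted p = 0.0316). Hairpins with a shift to 3p were let-7a (shift -0.68), miR-30a (-0.63), miR-93 (-0.81), miR-181a (-0.48) and miR-425 (-0.83). let-7a, the prototype of the family, had log2 ratios of 3.97 and 3.59 in WT and 3.09 and 3.10 in ΔPAZ helix. In each of these 11 hairpins both mutant libraries lay on 1 side of both WT libraries. The hairpins were chosen by p in the same libraries, so this separation adds no independent support.

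**Figure D4:**
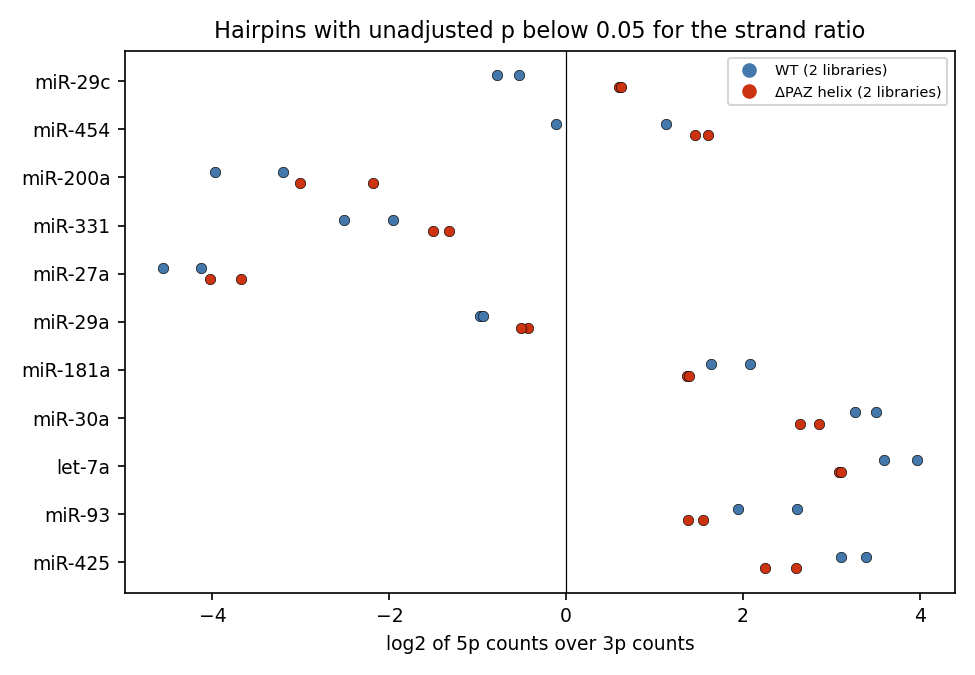
Log2 ratio of 5p to 3p counts (horizontal axis) in each WT (blue) and ΔPAZ helix (red) library for the 11 hairpins with an unadjusted p below 0.05. The 6 upper hairpins lie further to 5p and the 5 lower ones further to 3p in ΔPAZ helix, and in miR-29c both mutant values lie above 0 and both WT values below.

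The 4 tested microRNAs with the seed AUUGCAC spanned log2 fold changes of -0.92 for miR-25-3p, -0.24 for miR-92a-3p, -0.22 for miR-92b-3p and 0.11 for miR-32-5p. The first of them alone was called. miR-92a-3p also fell relative to the spike-ins, by 0.69 (adjusted p = 0.0104). Of the 20 tested members of the miR-17~92 cluster and its paralogues, 1 was called lower and 0 higher, with a median of -0.20 beside 0.00 for all entries. Within the transcript of miR-25 itself the values were -0.86 for miR-25-5p (adjusted p = 0.527, 26 and 25 counts in WT, 10 and 11 in ΔPAZ helix), -0.32 for miR-93-5p, 0.45 for miR-93-3p, 0.04 for miR-106b-5p and -0.52 for miR-106b-3p. Of the 20, 5 fell relative to the spike-ins, beside 13.1% of all entries: miR-25-3p, miR-19b-3p, miR-93-5p, miR-19a-3p and miR-92a-3p.

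The let-7 family, which represses RAS and HMGA2 mRNAs, had 19 tested entries and 0 called on the TMM scale. At an unadjusted p below 0.05 edgeR gave 4 lower and 0 higher, beside 20 lower and 24 higher of all 374. Its median was 0.03, which was -0.10 when scaled by total counts and -0.41 by spike-ins. The 9 entries with the seed GAGGUAG ranged from -1.31 for miR-98-5p and -0.59 for let-7e-5p to 0.18 for let-7b-5p, with let-7d-5p at -0.43, let-7i-5p at -0.31, let-7f-5p at -0.23, let-7a-5p at -0.17, let-7g-5p at 0.05 and let-7c-5p at 0.03. Reads of such near-identical entries could have been assigned to a relative, so single members are uncertain. Of the 19, 5 (26.3%, beside 13.1% of all entries) fell relative to the spike-ins, namely miR-98-5p, let-7e-5p, let-7i-3p, let-7i-5p and let-7f-5p.

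The miR-10/99/100 family held values of both signs. Of 7 tested entries 5 were positive, beside 190 positive and 184 negative among all 374. In the family 3 were higher at an unadjusted p below 0.05 (edgeR), beside 24 of all 374. The family median was 0.36 (-0.08 on the spike-in scale). miR-99b-5p, which shares its seed with miR-100-5p, was at 1834 and 1283 CPM in WT and 1147 and 1276 CPM in ΔPAZ helix, a log2 fold change of -0.36, and fell by 0.81 on the spike-in scale (adjusted p = 0.0246). It is transcribed with let-7e and miR-125a on chromosome 19, and 5 of the 6 tested entries of that cluster were negative, with a median of -0.42. All 6 tested entries with the seed AGCAGCA, the miR-15/16 family that targets BCL2 and cyclins, had positive values of 0.06 to 0.54. Those of the cluster of miR-183, miR-96 and miR-182, known from sensory organs, had values of 0.09 to 0.36 in 6 of 6 entries. The full miR-15/16 list, not limited to that seed, had 11 tested entries, 3 of them negative. The medians of the full lists were 0.18 over 11 miR-15/16 entries and 0.27 over 6 cluster entries, -0.28 and -0.17 on the spike-in scale. None was called on either scale.

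Epithelial miR-200 family entries, which repress ZEB1 and ZEB2, had a TMM median of -0.12 over 6. On the spike-in scale 2 of the 6 (33.3%, beside 13.1% of all entries) were called lower. These were miR-429 and miR-200a-3p, which fell by 1.05 and 0.71 (edgeR adjusted p = 0.0397 and 0.0477). The 4 tested entries with the seed AGUGCAA (miR-301a-3p, miR-454-3p, miR-301b-3p and miR-130b-3p) were all negative, from -0.61 to -0.04, beside 184 negative among all 374. Of the miR-23/27/24 clusters, 4 of 11 (36.4%, beside 13.1% of all entries) fell on the spike-in scale (miR-27a-3p, miR-27b-3p, miR-23a-3p and miR-23b-3p), with a TMM median of 0.11 that was -0.01 when scaled by total counts and -0.33 by spike-ins. Medians on the TMM scale were 0.12 for miR-30 (10 entries), 0.16 for miR-29 (7) and 0.33 for miR-181 (7), all of which turned negative on the spike-in scale.

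Entries that do not follow the usual route were mixed. Hairpins whose 5′ end is a start site of transcription bypass DROSHA but need DICER. A list of the miR-320 family and other entries taken by name as such hairpins had 7 tested entries. Of these 6 were negative, beside 184 among all 374, with a median of -0.48. The list holds both strands of miR-744 as well as miR-615-3p, which lies in introns of HOXC genes, and their start sites were not checked. Of the 7, 4 (57.1%, beside 13.1% of all entries) fell relative to the spike-ins: miR-320b, miR-744-5p, miR-320a and miR-484. miR-320a, the most abundant of them, was at 4211 and 7245 CPM in WT and at 4290 and 3937 CPM in ΔPAZ helix, so that the TMM-scaled groups overlapped. miR-451a, which matures without DICER, had only 27 to 44 counts per library and a log2 fold change of -0.05, or -0.49 relative to the spike-ins (adjusted p = 0.24). A list of entries taken by name as overlapping a snoRNA, tRNA or rRNA had 22 tested entries, 18 of them positive. Their median was 0.40, beside 190 positive among all 374 entries and a median of 0.00. The gene annotation placed miR-1248, miR-1291 and miR-3651 in a snoRNA exon. It gave no host for miR-1246, miR-1260b, miR-1275, miR-4484 and miR-4521, so the overlap was not shown for each entry. In this list 6 were higher at an unadjusted p below 0.05, beside 24 of all 374, and 0 were called, and their median on the spike-in scale was -0.05. All 34 entries of the list summed to 34635 and 38940 CPM in WT and to 40455 and 46033 in ΔPAZ helix. Among them miR-1260b was at 8628 and 6548 CPM in WT and at 10282 and 10739 CPM in ΔPAZ helix. Such entries can hold fragments of longer RNAs, and the part of RNA quality in the comparison was not tested.

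Sequence features of the entries were compared as a description, without matching for level, which the spike-in calls followed. Of 130 matched entries beginning with U, the median log2 fold change was -0.13 and 28 (21.5%) fell on the spike-in scale, beside 8.99% of 89 beginning with A, 8.97% of 78 with C and 5.88% of 34 with G. Among 3p entries those beginning with U had a median of -0.21 (47 entries), and among 5p entries one of 0.04 (74). Precursors at or below the median length of 61 nt (range 52 to 86) gave a median of -0.04 over 162 entries and longer ones 0.01 over 91. The 5p strands of those short and long precursors had medians of 0.06 and 0.03, with 7 of 85 and 8 of 47 called lower on the spike-in scale, and the 3p strands had medians of -0.15 and -0.08, with 16 of 77 and 5 of 44 called lower. pre-miR-185, with a loop of 13 nt, and pre-miR-98, with one of 36 nt, are shown because their 5p strands had similar values (-1.21 and -1.31) from hairpins of unlike loop.
pre-miR-185: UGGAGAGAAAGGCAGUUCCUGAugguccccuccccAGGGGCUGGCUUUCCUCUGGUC
pre-miR-98: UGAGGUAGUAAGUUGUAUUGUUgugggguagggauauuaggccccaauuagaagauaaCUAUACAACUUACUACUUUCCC

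Set directly against the other mutants, ΔPAZ helix differed from R821E in many entries and from the rest in few. No WT level enters these contrasts, but the WT libraries, whose replicates differed most, contribute to the spread shared by the fit. Against A5, 0 of 374 entries were called (edgeR, 8 at an unadjusted p below 0.05, lowest adjusted p = 0.652; DESeq2 0), and against E5 0 were called (37 unadjusted, lowest adjusted p = 0.187; DESeq2 0). Neither strand ratios nor the spike-in scale gave a call in these 2 comparisons. For miR-25-3p the log2 difference was 0.10 ± 0.15 against E5 and -0.57 ± 0.15 against A5 (adjusted p = 0.845 and 0.652), where its levels were 1867 ± 244 and 2963 ± 106.2 CPM.

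Against R821A, 3 entries (0.802%) were called. let-7d-5p and let-7i-5p were higher in ΔPAZ helix, by 1.28 ± 0.28 and 0.66 ± 0.14 on the log2 scale (edgeR adjusted p = 0.0493 for both), and miR-31-3p was lower, by -0.71 ± 0.12 (adjusted p = 0.0211). let-7d-5p stood at 1454 and 1318 CPM in ΔPAZ helix and at 572 ± 142.6 CPM in R821A, let-7i-5p at 5035 and 4729 against 3093 ± 46.0, and miR-31-3p at 6995 and 7364 against 11749 ± 1045 (SD, n = 2). None of the 3 was called without ΔPAZ helix replicate 1 or without replicate 2, and on the spike-in scale miR-31-3p alone was called.

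Against R821E, 111 entries (29.7%) were called, 55 higher and 56 lower in ΔPAZ helix. miR-25-3p had its lowest level in R821E, 582 ± 24.8 CPM against 2001 ± 57.8 CPM in ΔPAZ helix, a log2 difference of 1.78 ± 0.16 (edgeR adjusted p = 1.03e-05). miR-185-5p (1.75), miR-193a-3p (1.74), miR-342-3p (1.63) and miR-92b-3p (1.61) were also higher in ΔPAZ helix, and miR-1275 (-1.29), miR-1246 (-1.23), miR-545-5p (-1.22), miR-573 (-1.17) and miR-20a-3p (-1.15) were lower. For miR-98-5p the difference was -0.20 ± 0.32 (adjusted p = 0.668), and its level in R821E was 356 ± 86.6 CPM. Relative to the spike-ins 163 entries (43.6%) were higher and 1, miR-8072, was lower in ΔPAZ helix, and with total counts 113 were higher and 10 lower, so the split of calls depended on the scale. The TMM count was 53 without ΔPAZ helix replicate 1 and 45 without replicate 2.

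Strand ratios, in which scaling cancels, also differed between ΔPAZ helix and R821E. Of 69 hairpins, 27 (39.1%) were called, 23 of them (33.3%) further to 3p and 4 (5.80%) further to 5p in ΔPAZ helix. miR-29a had a mean log2 ratio of -0.47 in ΔPAZ helix and 1.23 in R821E, a difference of -1.70 ± 0.16 (limma adjusted p = 1.05e-05), and miR-27a one of -3.85 and -1.95 (adjusted p = 7.6e-05). let-7a was further to 5p in ΔPAZ helix, at 3.10 against 1.87 (adjusted p = 0.0049). Against R821A no hairpin was called (limma, 5 at an unadjusted p below 0.05).

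**Figure D5:**
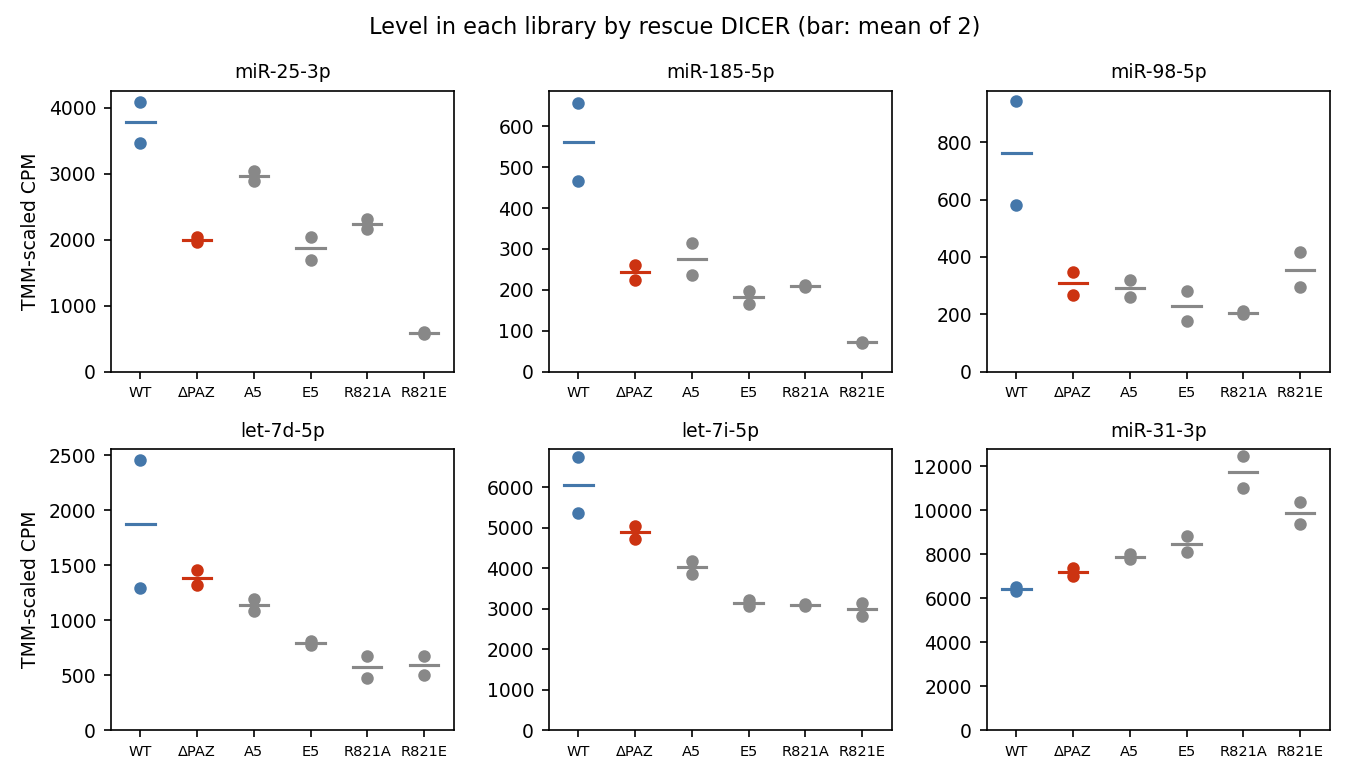
TMM-scaled CPM of 6 microRNAs in each library, by rescue DICER, with a bar at the mean of 2 libraries (WT blue, ΔPAZ helix red, other mutants grey). miR-25-3p is lowest in R821E at 582 CPM and miR-185-5p at 71.5 CPM, whereas miR-98-5p lies between 206.3 and 355.5 CPM on average in all 5 mutants, and miR-31-3p is highest in R821A.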

How the data were processed

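Small RNA from HCT116 cells was sequenced by AQ-seq, which lowers ligation bias. The authors deposited raw counts per microRNA and per spike-in sequence, with no normalization. Per the submitters' processing notes, reads passed through cutadapt, BWA and bedtools with hg38 and mm10 as builds. Tool versions, the role of each build and the treatment of reads that match several entries were not found in the labels. Testing used edgeR 4.0.16 in R 4.3.3 (robust quasi-likelihood, TMM, filterByExpr) over all 12 libraries, 6 residual degrees of freedom, Benjamini-Hochberg threshold 0.05. CPM are counts scaled to 1e+06 per library with TMM factors; list and marker sums use total microRNA counts alone. On the spike-in scale the library size was the summed spike-in count. Strand ratios, log2((5p + 0.5)/(3p + 0.5)), were tested with limma 3.58.1. Alternatives included DESeq2 1.42.0 and limma-voom. Steps were tested on simulated data.

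Replicates were no copies of each other (chi-square per degree of freedom 25.6 in WT, 3.83 in ΔPAZ helix). At these depths 3 counts equal 11.96 to 16.3 CPM, a floor that covers counting error alone, as amplified reads lack molecular identifiers. Members and lists were chosen with earlier results of these data known. Named entries have at least 100 CPM: all called ones, else the 5 of lowest p each way, the 10 highest in WT, the 10 lowest on the spike-in scale, and 5 each way for strand ratios and direct comparisons; other list members are examples. Host genes are from GENCODE v29 (GRCh38).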

Additional observations from a re-analysis of the deposited data

How the results depend on the processing

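With 2 libraries per group, counts of calls moved with most choices. Against WT on the TMM scale, 1 entry was called, against 3 with DESeq2, 3 with total counts, 7 with no filter, 2 with a mean of at least 100 CPM, 0 with only the 4 libraries compared, and 0 to 10 when leaving out 1 library (10 without WT replicate 1, 6 without WT replicate 2). miR-25-3p was called in 11 of 14 alternatives, with log2 fold changes of -1.04 to -0.79. On the spike-in scale, 49 became 30 without the most abundant spike-in, 30 without spike_in_24 (chosen after seeing the data), 18 with TMM factors over spike-ins, 0 with 4 libraries, and 1 to 46 with a library left out. Hairpins called for the strand ratio were 1 in place of 0 at a mean of 100 counts (miR-29a) and 0 to 1 with a library left out (miR-454 without WT replicate 1). Against R821E 111 became 45 to 53 with a ΔPAZ helix library left out, and against R821A 3 became 1 with DESeq2 size factors, 1 on the spike-in scale, and 0 with a library left out.

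Replicate numbers did not pair the samples (correlation of deviations -0.24 between WT and ΔPAZ helix). With the replicate block, 1 entry was called on the TMM scale (miR-25-3p, edgeR adjusted p = 0.0306), 27 on the spike-in scale, 0 hairpins and 1 against R821A. A crossed pairing in the 4 libraries, added after seeing the data, gave 3 calls.

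Named values that changed sign were not called in either setting. On the spike-in scale they were -0.20 for miR-21-5p, -0.31 for miR-4521, -0.14 for miR-16-5p, -0.078 for miR-342-3p, -0.22 for miR-1275, -0.35 for miR-1246, -0.32 for miR-20a-3p and -0.29 for miR-31-3p. Total counts, which moved the median of all entries to -0.11, gave -0.005 for miR-1246, and limma-voom gave 0.079 for miR-21-3p. Over the 14 alternatives, values ranged from -0.15 to 0.083 for miR-222-3p, -0.36 to 0.36 for miR-31-5p, -0.44 to 0.10 for miR-27a-3p, -0.31 to 0.24 for miR-24-3p, -0.57 to 0.74 for miR-21-3p, -0.54 to 0.019 for miR-193a-3p, -0.50 to 0.16 for miR-92b-3p, -0.82 to 0.12 for let-7d-5p, -0.061 to 0.61 for miR-1275, -0.13 to 0.41 for miR-1246 and -0.29 to 0.79 for miR-20a-3p. The cause of these changes was not tested. Depth limits entries below 100 CPM, whose median SE was 0.51.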

Other observations

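A group that the report does not describe is the entries of the X-chromosome cluster of miR-532, miR-188, miR-500, miR-362, miR-501, miR-660 and miR-502, in introns of CLCN5. Of 16 entries 11 were tested, 8 of them negative, beside 184 negative among all 374. The median log2 fold change was -0.12, or -0.58 relative to the spike-ins, and 0 were called on either scale. At an unadjusted p below 0.05 on the TMM scale edgeR gave 1 higher and 0 lower, beside 24 and 20 of all 374. The counts of miR-500a-5p and miR-500b-5p, both at -0.12, were identical, so the same reads enter this list under both names and set its median. The miR-34 family, induced by p53, which is wild type in HCT116, had 5 tested entries with a median of -0.11 (-0.56 relative to the spike-ins) and 0 called. The family of miR-148 and miR-152, known to target DNMT1, had a median of -0.15 over 4, the miR-26 family, known to target EZH2, one of 0.18 over 5 (-0.27 relative to the spike-ins), and the miR-125 family, homologues of lin-4, one of -0.20 over 4, all of them negative. Of 27 mirtron entries, hairpins released by splicing, the 2 strands of miR-877 alone were tested, with a median of -0.76 and 0 called.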
